A study of Homo sapiens with 12 samples.

Results

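The genes of the cytosolic ribosomal proteins were taken by name from the 2 expression tables of the study: RPL or RPS with a number and at most 1 of the letters A, X or L, together with RPLP0, RPLP1, RPLP2 and RPSA, without pseudogenes and without the S6 kinases. The rule found 81 genes, 32 of the small and 49 of the large subunit, among 29972 gene rows in each table. It uses names only, no measured value. Poly(A) RNA was sequenced from 2 human cell lines of triple-negative breast cancer: MDA-MB-436, and a line with a preference for growth in bone, BoM-1833. The 4 groups of 3 libraries were MDA-MB-436 with siNT, MDA-MB-436 with siPHF19, BoM-1833 with siNT and BoM-1833 with siPHF19. siNT was a commercial pool of non-targeting small interfering RNAs, and for siPHF19 the labels list 2 siRNAs from another supplier, with equal parts wherever siRNAs were mixed. They do not say for each library whether both were used. All cells, controls included, were transfected with the same lipid reagent at 5 nM siRNA and taken at 72 h. PHF19 is an accessory subunit of PRC2, the Polycomb complex that methylates histone H3. The labels do not say whether the 3 libraries of a group came from separate cultures, so p-values measure the spread between libraries, which may be technical.

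Each cytosolic ribosome carries about one copy of every ribosomal protein around its rRNA, so cells make these proteins in near equal amounts from many unlinked genes. The genes are among the most highly expressed of a growing cell, and their mRNAs are short. Most begin with a C followed by a run of pyrimidines, the TOP motif (5′ terminal oligopyrimidine), through which mTOR and LARP1 control their translation and stability. Unassembled RPL5 and RPL11, which bind 5S rRNA, restrain MDM2 and so stabilise p53.

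Pyrimidine runs near the start, the mark of a TOP motif, are shown first because most of these genes share them. RefSeq start sites on GRCh38.p14 were on hand for 64 of the 81 genes. A run of at least 8 C or T touching the 10 bases on either side of the start was present in 52 of these 64 (81.3%), against 18.3% of 27305 genes with an entry. Runs that do not contain the start were counted as well, so a counted run need not be a TOP motif. CCGGAA, or TTCCGG on the other strand, was present between 250 bases before and 50 after the start in 57.8% of them, against 20.1% of all genes. The 30 bases around the start, 15 on each side, are given 5′ to 3′ on the transcribed strand for the genes on which the tests below turn and for 3 reference members. Capitals mark the pyrimidine run.
RPL17, chr18:49492451-49492480, minus strand: CCTCTTTCCCTaagcagcctgaggtgagtg
RPS25, chr11:119018329-119018358, minus strand: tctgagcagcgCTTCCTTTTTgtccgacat
RPL15, chr3:23916530-23916559, plus strand: ggcgctggggcctgctggaggagCTTCacg
RPS27L, chr15:63157463-63157492, minus strand: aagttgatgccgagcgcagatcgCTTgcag
RPLP0, chr12:120201097-120201126, minus strand: gcgcgggcgcgaggCCCTTCTCTCgccagg
RPS6, chr9:19380222-19380251, minus strand: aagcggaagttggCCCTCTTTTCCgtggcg
RPL11, chr1:23691791-23691820, plus strand: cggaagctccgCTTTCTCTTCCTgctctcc
RPL17 and RPS25, the genes that the deposited test called lower after siPHF19 in both lines, have runs of 16 and 10 pyrimidines. The RPL17 run begins before the window and ends before the RefSeq start, so it lies outside a transcript from that start. The RPS25 run spans the start. RPL15 and RPS27L, the genes that it called higher in MDA-MB-436, have runs of 4 and 3 at the RefSeq start shown (RPL15 has 3 starts there). These are 4 genes picked by their result, so the contrast is a description.

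Reads assigned to genes numbered 13.7 to 24.0 M per library. In MDA-MB-436 PHF19 had 2942, 3354 and 3763 normalized counts in siNT libraries 1 to 3 and 340, 326 and 315 in siPHF19, so 9.75% was left. In BoM-1833 it had 1711, 1684 and 1669 against 181, 201 and 173, so 10.9% was left. Markers matched the labelled cell type: on the TPM scale (reads per transcript length, scaled to a fixed total per library), VIM was between 1056 and 5209 in all 12 libraries, CD44 between 882 and 1339 and AXL between 158 and 731. EGFR was between 27.5 and 158, CAV1 between 152 and 376, and ERBB2 between 22.2 and 34.4. ESR1 did not exceed 0.119 and PGR 0.0863. Of the markers of other cells, DCN was at 0 everywhere, PTPRC did not exceed 0.896, COL1A1 9.29 and PECAM1 7.77. COL1A1 moved with the treatment, from 78.8 ± 13.3 to 121 ± 7.88 normalized counts in MDA-MB-436. In BoM-1833 it went from 307 ± 18.1 to 474 ± 10.5 (mean ± SD, n = 3). Some markers of the lines moved too in the authors' deposited table (DESeq2). In MDA-MB-436 CD44 (log2 fold change -0.29, adjusted p = 2.7e-05) and CAV1 (-0.37, 2.3e-06) fell and AXL rose (0.29, 0.00013). In BoM-1833 VIM fell (-0.21, 0.0021). VIM was not called in MDA-MB-436, nor CD44, AXL and CAV1 in BoM-1833, nor EGFR and ERBB2 in either line. The part of these changes in the results below was not tested.

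Ribosomal protein mRNAs were abundant in both lines, and their levels differed widely from gene to gene. On the TPM scale the median over the 79 tested members was 1617 (MDA-MB-436 siNT) and 1202 (BoM-1833 siNT), and 72 and 67 of them were among the 200 most abundant of 22809 genes. In MDA-MB-436 the largest TPM values were those of RPL8 (6906 ± 477, siNT mean ± SD, n = 3), of RPS3A (5942 ± 854) and of RPL7A (5277 ± 370). These 3 encode structural proteins of the large (RPL8, RPL7A) and small (RPS3A) subunit. In BoM-1833 the largest were RPLP0 (3101 ± 176), the base of the stalk that recruits elongation factors, RPS18 (2805 ± 180) and RPL19 (2540 ± 94.3). At the other end, RPS29 had 328 ± 45.8 TPM in MDA-MB-436 and RPS26 310 ± 27.9 in BoM-1833. One median length per gene was used here, so differences of TPM between genes also carry the choice of length.

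The L-suffix paralogs lay far below their parents. RPL39L, known best from testis, had 46.8 ± 7.63 TPM in MDA-MB-436 siNT and 54.5 ± 8.83 in BoM-1833 siNT, against 1570 ± 236 and 1401 ± 89.4 for RPL39. RPS27L, a p53 target, had 63.1 ± 7.79 and 90.3 ± 2.18 TPM, against 3359 ± 61.2 and 1487 ± 58.9 for RPS27. RPL10L, a retrogene used in spermatogenesis, was at 0 in all 12 libraries. RPL3L, the striated-muscle form of RPL3, had 1 read in 1 BoM-1833 siNT library and none in the other 11. The authors' deposited table gives neither gene an adjusted p in either line, which leaves 79 of 81 as tested.

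As a whole, the share of reads taken by the ribosomal protein genes differed between siPHF19 and siNT by less than the spread of the control libraries. In MDA-MB-436 they made up 6.68%, 6.03% and 5.40% of reads in siNT libraries 1 to 3, and 5.70%, 5.96% and 6.09% in siPHF19 libraries 1 to 3. The means were 6.04 ± 0.636% and 5.91 ± 0.198% (SD, n = 3), with p = 0.8 by an exact 2-sided permutation test. In BoM-1833 the shares were 4.04%, 3.57% and 3.45% in siNT and 3.54%, 3.67% and 3.72% in siPHF19. Here the means were 3.69 ± 0.309% and 3.64 ± 0.094% (SD, n = 3; exact permutation p = 0.9). In both lines all 3 siPHF19 libraries fell inside the range of the siNT libraries. With 3 against 3 libraries this test cannot give a p below 0.1. A share of bulk RNA cannot tell fewer cells of a kind from less RNA per cell. Without siNT library 1 the difference changed sign in both lines, from -0.124 to 0.195 percentage points (MDA-MB-436) and from -0.043 to 0.132 (BoM-1833). It also changed sign in BoM-1833 without siPHF19 library 1, to 0.0092.

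**Figure D1:**
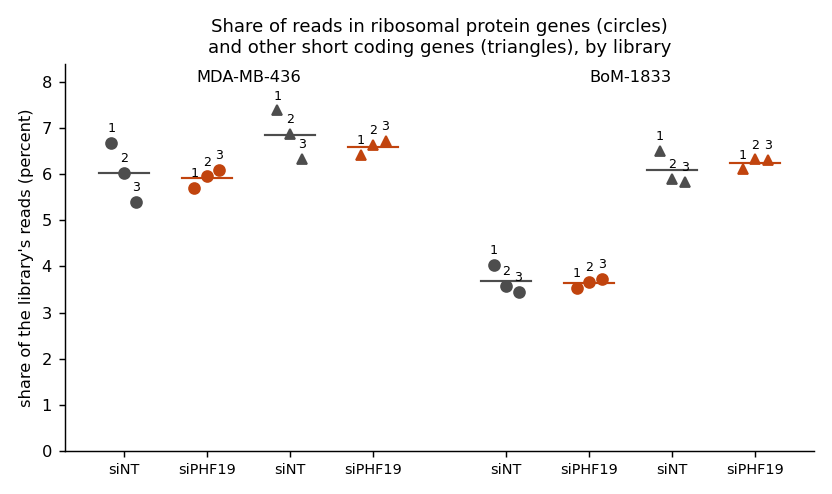
Share of each library's reads, in percent, that fell on the 81 ribosomal protein genes (circles) and on other coding genes with a transcript under 1000 nt (triangles), for siNT (grey) and siPHF19 (orange) libraries 1 to 3 of each line. Horizontal lines are group means. siNT library 1 is the highest of its group for both gene sets in both lines.

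The libraries spread more within siNT than within siPHF19, and the spread was graded by transcript length. The median transcript length of the ribosomal protein genes is 764 nt, against 2300.5 nt for other protein-coding genes in GENCODE 29, and 76.5% of them are under 1000 nt. siNT library 1 had the highest value of the 3 siNT libraries for 73 of 79 members for MDA-MB-436 and 78 of 79 for BoM-1833, and siNT library 3 the lowest for 76 and 52. The highest siNT library exceeded the lowest by a median of 1.29-fold in MDA-MB-436 and 1.19-fold in BoM-1833, while among siPHF19 libraries the median was 1.08-fold and 1.07-fold. Relative to the mean of the 6 MDA-MB-436 libraries, siNT library 1 deviated by a median of 0.22 on the log2 scale for ribosomal protein genes. For other coding genes under 700 nt it deviated by 0.23, falling class by class to -0.12 over 4000 nt. siNT library 3 of MDA-MB-436 had the opposite slope, from -0.11 under 700 nt to 0.068 over 4000 nt, with -0.15 for ribosomal protein genes. In BoM-1833, siNT library 1 deviated by 0.17 for ribosomal protein genes, by 0.11 for other coding genes under 700 nt and by -0.097 over 4000 nt. Other coding genes under 1000 nt followed the same order of libraries in their share of reads, with 7.39%, 6.87% and 6.33% in MDA-MB-436 siNT and 6.51%, 5.91% and 5.84% in BoM-1833 siNT.

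**Figure D2:**
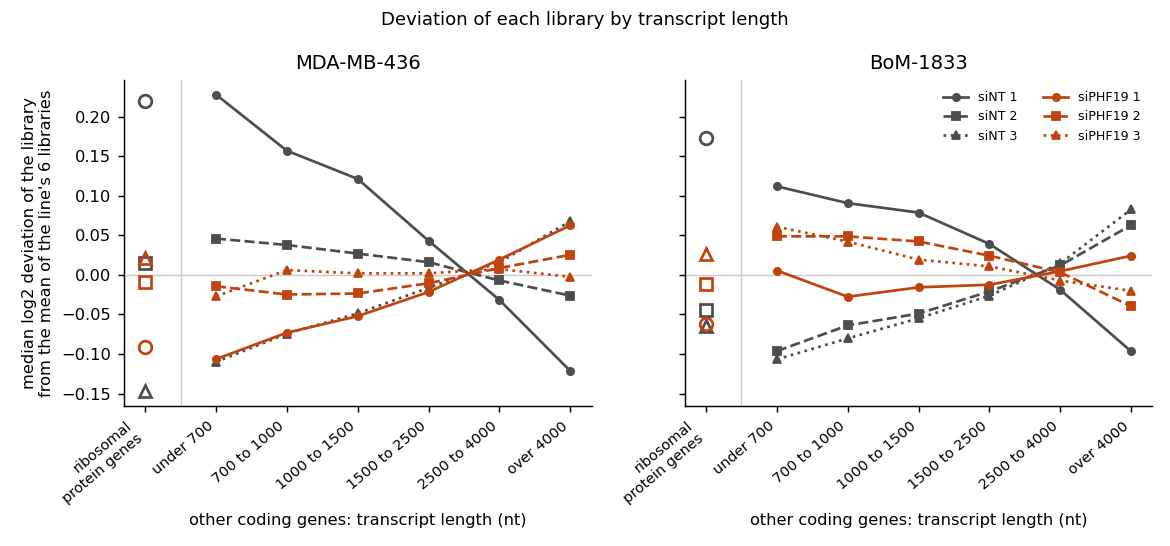
Median log2 deviation of each library from the mean of its line's 6 libraries, for the 79 ribosomal protein genes (open symbols at the left) and for other coding genes by transcript length in nt (lines), siNT in grey and siPHF19 in orange. siNT library 1 slopes down from short to long transcripts in both lines, and the ribosomal protein genes sit high in it (0.22 and 0.17).

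In the authors' deposited DESeq2 test (Wald test, Benjamini-Hochberg adjusted p under 0.05 over all genes tested), few ribosomal protein genes changed. In MDA-MB-436, 2 of 79 were called higher and 2 lower, where 10.5% and 11.5% of all 14243 tested genes were called. In BoM-1833, 0 of 79 were called higher and 2 lower, where 5.21% and 5.72% of all 12906 tested genes were called. At an unadjusted p under 0.05, 3 members were higher and 5 lower in MDA-MB-436, and 0 higher and 8 lower in BoM-1833. Of all tested genes, 2227 of 14243 were higher and 2412 lower at that threshold in MDA-MB-436. In BoM-1833 1341 of 12906 were higher and 1424 lower. edgeR's quasi-likelihood test likewise called 0 members higher in BoM-1833. The share of members called was below that of all genes in each direction and line. Members whose 3 siPHF19 libraries lay outside the range of the 3 siNT libraries numbered 7 of 79 for MDA-MB-436 (4 above, 3 below) and 8 for BoM-1833 (all below), against 42.2% and 31% of all tested genes. The spread of the siNT libraries for short transcripts, given above, widens the range that siPHF19 libraries must leave to be counted here.

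Fold changes of the ribosomal protein genes were small and slightly below 0 on balance. The median log2 fold change over the 79 members in the authors' deposited table was -0.071 in MDA-MB-436 (24 positive, 55 negative) and -0.033 in BoM-1833 (20 positive, 59 negative), beside -0.0022 and -0.0035 over all tested genes. Other coding genes under 700 nt had a median of -0.11 for MDA-MB-436 and 0.065 for BoM-1833, and those over 4000 nt 0.052 and -0.032. The range over members in the authors' deposited table was -0.32 to 0.42 for MDA-MB-436 and -0.27 to 0.12 for BoM-1833. The 95% interval computed from the deposited standard error lay within 0.5 of 0 on the log2 scale for 77 of 79 members for MDA-MB-436 and for all 79 for BoM-1833. The small subunit had medians of -0.048 and -0.023 and the large subunit -0.083 and -0.056, with 1 gene called lower in each subunit and line.

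**Figure D3:**
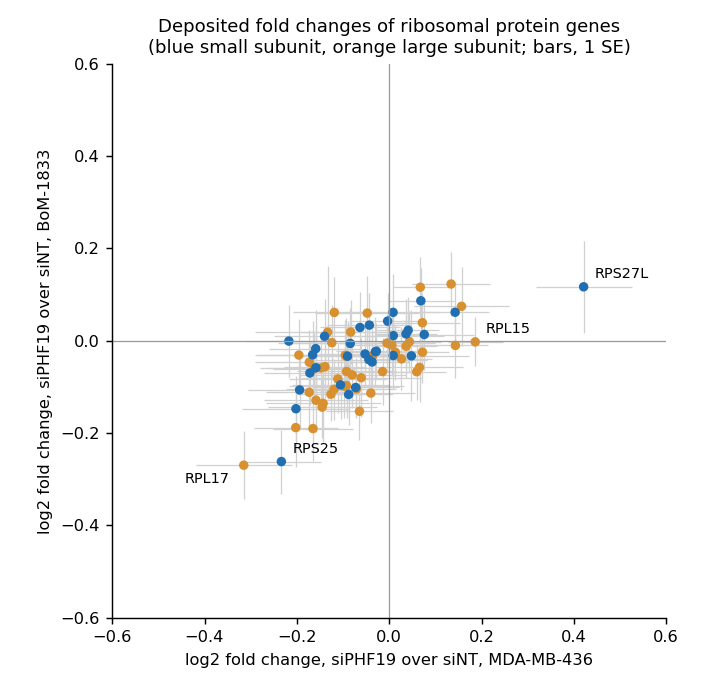
Log2 fold change of siPHF19 over siNT in MDA-MB-436 (horizontal) and BoM-1833 (vertical) for the 79 tested ribosomal protein genes, with 1 standard error as deposited by the authors, small subunit in blue and large subunit in orange. Most genes lie close to 0, with RPL17 and RPS25 low in both lines and RPS27L high in MDA-MB-436.

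RPL17 and RPS25 fell in both lines. They were the only members called in both. Of the 12288 genes with a test in each line, 3.12% were called lower in both, so 2 of 79 members is not above that share. RPL17 (chromosome 18, 49488453 to 49492523, minus strand, GRCh38) encodes a large-subunit protein beside the exit of the peptide tunnel. Its normalized counts in MDA-MB-436 were 12641, 10566 and 9325 in siNT libraries 1 to 3, and 8163, 8975 and 9011 in siPHF19 libraries 1 to 3. In BoM-1833 they were 7840, 6890 and 6527 in siNT, and 5607, 5775 and 6260 in siPHF19. All siPHF19 libraries lay below all siNT libraries in both lines. The authors' deposited table (DESeq2) gave RPL17 a log2 change of -0.32 ± 0.10 (SE, adjusted p = 0.015) for MDA-MB-436 and of -0.27 ± 0.074 (adjusted p = 0.0043) for BoM-1833. In refits with DESeq2 without 1 library, RPL17 lost its call without siPHF19 library 1 in MDA-MB-436 (adjusted p = 0.13) and without siPHF19 library 1 (0.077) or 2 (0.070) in BoM-1833. The gene model of RPL17 is shared with the read-through gene RPL17-C18orf32, whose row held 0.856% and 0.619% of the RPL17 count.

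RPS25 (chromosome 11, 119015712 to 119018691, minus strand, GRCh38) encodes a small-subunit protein known for its part in initiation at internal ribosome entry sites. Its normalized counts were 7027, 6451 and 5676 in MDA-MB-436 siNT and 5181, 5622 and 5490 in siPHF19. In BoM-1833 they were 5583, 4707 and 4982 in siNT and 4154, 4290 and 4299 in siPHF19. Again no siPHF19 library reached the lowest siNT library of its line, although in MDA-MB-436 the gap was only that between 5622 and 5676. The authors' deposited table (DESeq2) gave RPS25 a log2 change of -0.23 ± 0.087 (SE, adjusted p = 0.035) for MDA-MB-436 and of -0.26 ± 0.069 (adjusted p = 0.0030) for BoM-1833. In MDA-MB-436, DESeq2 refits lost the call when any 1 library other than siNT 3 was left out (adjusted p from 0.063 to 0.23), and edgeR did not make it with its default filter on low counts (adjusted p = 0.058) but did with all genes of at least 1 read (adjusted p = 0.036). In BoM-1833 the call was lost without siPHF19 library 1 (DESeq2 adjusted p = 0.0502). CCDC84 and TRAPPC4 overlap RPS25 on the opposite strand, with 2.92% and 9.60% of its count in MDA-MB-436 and 2.53% and 18.4% in BoM-1833. Neither was called in either line.

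RPL15 and RPS27L rose in MDA-MB-436 and were not called in the other line. RPL15 (chromosome 3, 23916545 to 23924374, plus strand, GRCh38) encodes a large-subunit protein. Its normalized counts in MDA-MB-436 were 16933, 18054 and 18482 in siNT and 20138, 20634 and 20065 in siPHF19, so that every siPHF19 library was above every siNT library. Its siNT order was the reverse of that of most members, with library 1 the lowest. The authors' deposited table (DESeq2) gave RPL15 a log2 change of 0.19 ± 0.060 (SE, adjusted p = 0.012) for MDA-MB-436 and of -0.0024 ± 0.053 (adjusted p = 0.99) for BoM-1833. DESeq2 refits lost the MDA-MB-436 call without siNT library 2 (adjusted p = 0.12) and without siPHF19 library 1 (0.13), 2 (0.19) or 3 (0.11). NKIRAS1 overlaps RPL15 on the opposite strand with 2.38% of its count in MDA-MB-436. It was called in neither line, with log2 changes of 0.30 ± 0.13 (SE, deposited DESeq2 adjusted p = 0.065) and 0.25 ± 0.11 (BoM-1833, 0.14).

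RPS27L (chromosome 15, 63125872 to 63158021, minus strand, GRCh38) had the largest change of all members in MDA-MB-436. Its normalized counts were 426, 481 and 492 in siNT and 605, 651 and 615 in siPHF19. In BoM-1833 they were 576, 545 and 571 in siNT and 656, 566 and 611 in siPHF19, where the groups overlap. The authors' deposited table (DESeq2) gave RPS27L a log2 change of 0.42 ± 0.10 (SE, adjusted p = 0.00060) for MDA-MB-436 and of 0.12 ± 0.099 (adjusted p = 0.57) for BoM-1833. It was called in MDA-MB-436 under all 24 other settings tried, the highest adjusted p being 0.042. RPL17 was called under 21 of these 24 in each line. RPS25 was called under 22 in BoM-1833 but only 8 in MDA-MB-436, and RPL15 under 16 in MDA-MB-436. LACTB overlaps RPS27L on the opposite strand with 182% of its count, and the authors' deposited table gave it a log2 change of -0.11 ± 0.097 (adjusted p = 0.46) there. The use of strand in counting is not given in the sources used here, so reads of the overlapping pair cannot be told apart. For its parent RPS27 the authors' deposited table gave 0.14 ± 0.074 (adjusted p = 0.16) for MDA-MB-436 and 0.062 ± 0.065 (adjusted p = 0.67) for BoM-1833.

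**Figure D4:**
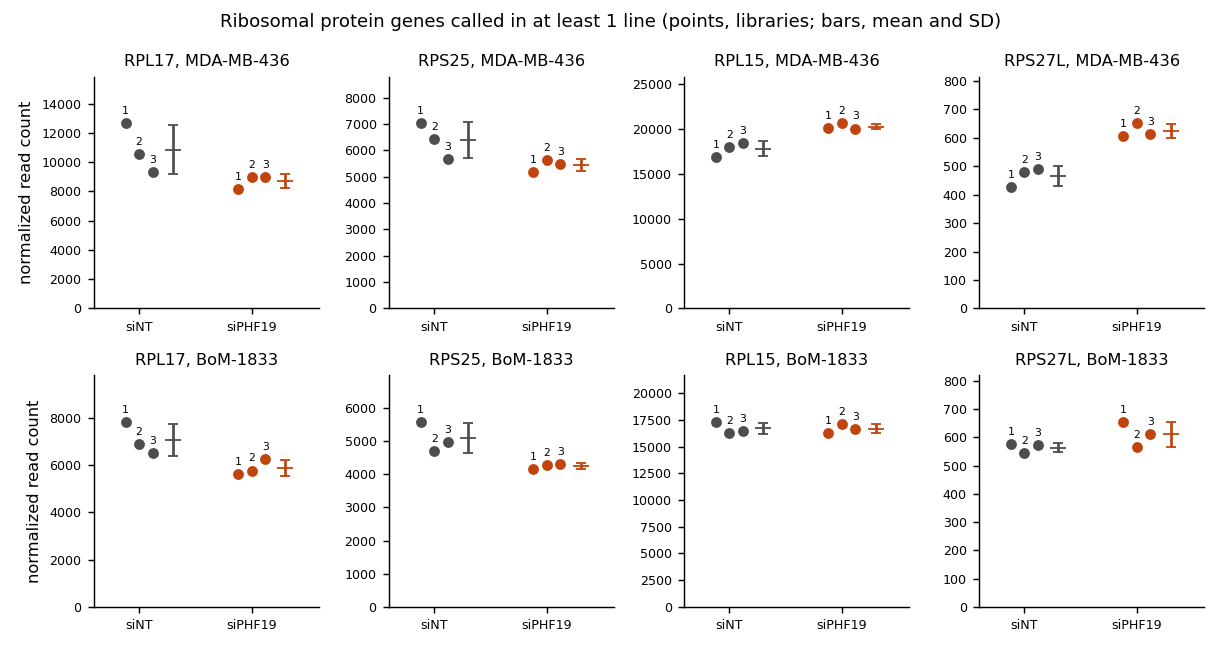
Normalized read counts of RPL17, RPS25, RPL15 and RPS27L in siNT (grey) and siPHF19 (orange) libraries 1 to 3 of MDA-MB-436 (top) and BoM-1833 (bottom), with the mean and SD (n = 3) beside the points. RPL17 and RPS25 are lower in siPHF19 in both lines, RPL15 and RPS27L higher in MDA-MB-436.

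Other members with a defined role did not pass the deposited test in either line. The proteins of the stalk, which hold the elongation factors on the ribosome, had small positive or near-zero changes. RPLP0 counts in MDA-MB-436 were 36398, 34795 and 33458 in siNT and 35980, 36182 and 37493 in siPHF19, and in BoM-1833 they were 29150, 25328 and 25104 against 28102, 29613 and 28538, with overlap in both lines. The authors' deposited table gave it log2 fold changes of 0.067 ± 0.059 (adjusted p = 0.46, DESeq2) and 0.12 ± 0.064 (0.29). For RPLP1 they were 0.16 ± 0.10 and 0.075 ± 0.085, and for RPLP2 -0.047 ± 0.11 and 0.060 ± 0.081 in the authors' deposited table. RPSA, the laminin receptor protein of the small subunit, had 0.069 ± 0.072 and 0.087 ± 0.071 there.

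Neither partner of 5S rRNA passed the test. RPL5 counts were 14835, 13111 and 12909 in BoM-1833 siNT and 12120, 12383 and 12252 in siPHF19, without overlap. The authors' deposited table gave it -0.15 ± 0.063 (adjusted p = 0.10, DESeq2) there, and -0.064 ± 0.073 (adjusted p = 0.59) for MDA-MB-436, where counts ran from 12557 to 14645 in siNT and from 12504 to 13207 in siPHF19. For RPL11 the authors' deposited table had -0.067 ± 0.069 (BoM-1833) and -0.092 ± 0.11 (MDA-MB-436). RPS6, the substrate of the S6 kinases, had -0.073 ± 0.095 for MDA-MB-436 and -0.10 ± 0.065 for BoM-1833, and RPS19, a gene mutated in Diamond-Blackfan anaemia, -0.14 ± 0.11 and 0.0097 ± 0.081, again from the authors' deposited table. Among the parents of the paralogs, RPL3 had -0.13 ± 0.073 and -0.12 ± 0.057, RPL10 0.072 ± 0.058 and -0.025 ± 0.066, and RPL39 -0.092 ± 0.12 and -0.097 ± 0.071 in the authors' deposited table, in the same order of lines. RPL39L itself had -0.13 ± 0.16 and 0.019 ± 0.14 in the authors' deposited table.

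With the length trend of each library taken out, 12 members were called for MDA-MB-436 and 19 for BoM-1833. A smooth offset on transcript length was fitted per library on genes other than ribosomal protein genes, and the DESeq2 test was run again with it. The median SD of a member within the siNT group fell by that step from 0.18 to 0.092 (log2) for MDA-MB-436 and from 0.13 to 0.047 for BoM-1833. The median deviation of the members in siNT library 1 went from 0.22 to 0.083 and from 0.17 to 0.078, so a part of it remained. In MDA-MB-436, 10 members were then called higher and 2 lower, where 11.3% and 12.9% of all tested genes were called, and the median log2 fold change was 0.013. The share of members called higher was thus close to that of all genes. The 10 were RPL15, RPS27L, RPLP0, RPLP1, RPSA, RPL23A, RPL28, RPL37, RPS20 and RPS27, with log2 fold changes from 0.13 (RPLP0, RPSA) to 0.48 (RPS27L). RPL15 and RPS27L had siNT library 1 lowest and library 3 highest in MDA-MB-436. That order is the reverse of the trend that the offset removes for short transcripts. In BoM-1833, 0 members were called higher and 19 lower, where 7.31% and 7.6% of all tested genes were called, and the median was -0.077. At an unadjusted p under 0.05, 1 of 80 members with a p-value was higher and 32 were lower in that BoM-1833 fit. In the MDA-MB-436 fit with the offset, 16 of 79 were higher and 4 lower at that threshold. The number of all genes at that threshold was not counted for these fits. The 19 included RPL17 (-0.31 ± 0.048), RPS25 (-0.30 ± 0.047), RPL5 (-0.18 ± 0.039), RPS3A (-0.18 ± 0.042) and RPS6 (-0.13 ± 0.043). All 4 and both genes called in the deposited test were among the calls with the offset. The offset also removes any difference between the arms that is itself graded by length, so its calls rest on that choice.

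The counts of called members depended on siNT libraries 1 and 3. Without siNT library 1, DESeq2 called 8 members higher and 1 lower for MDA-MB-436 and 7 higher and 2 lower for BoM-1833, where 9.59% and 7.53% of all tested genes were called higher. Without siNT library 3 it called 2 higher and 31 lower in MDA-MB-436, where 13.7% of all tested genes were called lower. In BoM-1833 it then called 6 lower, where 527 of all 11718 tested genes were called lower. Without siNT library 2 it called 1 higher and 1 lower for MDA-MB-436, where 851 and 959 of all 13640 tested genes were called. In BoM-1833 it then called 2 lower, where 470 of all 12367 tested genes were called lower. The median log2 fold change of the members moved from 0.042 without siNT library 1 to -0.18 without siNT library 3 for MDA-MB-436, and from 0.047 to -0.081 for BoM-1833. The cause of the difference between siNT libraries was not tested. RPL17 was lower under each of these settings in both lines, at a log2 fold change between -0.41 and -0.19 in MDA-MB-436 and between -0.33 and -0.19 in BoM-1833.

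**Figure D5:**
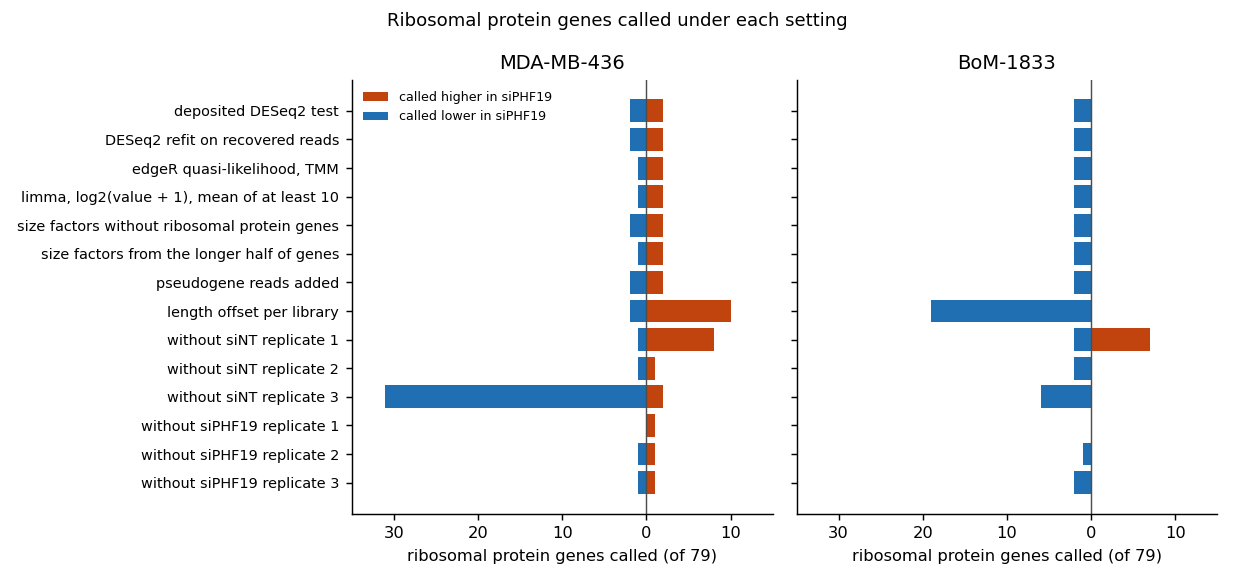
Number of the 79 tested ribosomal protein genes called higher (orange, to the right) and lower (blue, to the left) in siPHF19 under the deposited test and 13 other settings, in MDA-MB-436 and BoM-1833. The counts stay at 2 or less in each direction for the edgeR run (default filter on low counts), the limma run and the size factors drawn, and reach 10, 19 and 31 with the length offset or without single siNT libraries.

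The response of the ribosomal protein genes was not shown to differ between the lines by the deposited values. A z test on the difference of the deposited log2 fold changes called 0 of 79 members, where 4.88% of 12288 genes were called, and 2 members passed an unadjusted p under 0.05. These were RPL15 and RPS27L, with adjusted p = 0.19 and 0.26. A DESeq2 interaction term over all 12 libraries also called 0 members, with 2 at an unadjusted p under 0.05 and the lowest adjusted p at 0.058 (RPL15). With the length offset, chosen for this comparison after the data had been seen, the interaction called 9 members, all with a higher fold change in MDA-MB-436, a direction in which 4.12% of all tested genes were called. They were RPL5, RPL37, RPL12, RPL29, RPS27, RPL23A, RPL15, RPS18 and RPL31. For RPL5 the difference was 0.18 ± 0.043 (SE, DESeq2 adjusted p = 0.00096), for RPL37 0.25 ± 0.065 (0.0042) and for RPL15 0.28 ± 0.093 (0.036). Without the offset the SE was larger for RPL5 (0.095) and RPL37 (0.13) but smaller for RPL15 (0.066). The RPL15 call with the offset thus rests on a larger difference, not on a smaller error. With the offset the median difference over the 79 members was 0.088 on the log2 scale, against -0.0067 over all tested genes.

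Levels of many members differed between the siNT arms of the lines. In RPM of the siNT libraries (reads scaled to the same total in every library), 49 of 79 members had all 3 MDA-MB-436 libraries above all 3 BoM-1833 libraries and 8 had them below, where 39.4% and 40.9% of 12288 genes did. The ratio of MDA-MB-436 to BoM-1833 had a median of 1.462 and ran from 0.648 (RPLP1) to 3.44 (RPL8). RPL8 had 3662, 3398 and 2977 RPM in MDA-MB-436 siNT and 1084, 964 and 871 in BoM-1833 siNT. RPLP1 had 255, 239 and 199 against 410, 310 and 349. The members did not shift together: RPL32 (3.36), RPL36A (3.19), RPL7A (3.13), RPL10 (2.92) and RPS6 (2.68) were far above 1, RPS18 (1.01) and RPL15 (0.951) near 1, and RPL5 (0.887), RPL19 (0.754) and RPL28 (0.687) below it. These ratios are a description with no test. The tables of the lines were normalized separately, so RPM values were computed from the recovered reads of each library. The labels name no batch, and line and batch cannot be told apart.

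Genes that act with the ribosomal proteins were described by lists, to be read beside the shares of all tested genes called, 10.5% higher and 11.5% lower for MDA-MB-436 and 5.21% and 5.72% for BoM-1833. Of 7 ribosomal protein genes under other names, 2 were called lower for MDA-MB-436 and 1 for BoM-1833. RPL7L1, which acts in assembly of the large subunit, was lower in both (-0.22 ± 0.065, adjusted p = 0.0067, and -0.19 ± 0.052, adjusted p = 0.0035, DESeq2 in the authors' deposited table), and RPL22L1 was called in MDA-MB-436 (-0.54 ± 0.14, adjusted p = 0.00088) but not in BoM-1833 (-0.061 ± 0.13, adjusted p = 0.87), a difference between lines that was not tested for it. Of 20 other mRNAs with a TOP motif, 2 were called higher and 1 lower for MDA-MB-436 and 3 lower for BoM-1833. EEF2, the translocation factor of elongation, fell in both lines (-0.32 ± 0.059 and -0.39 ± 0.052 in the authors' deposited table). PABPC1 and PABPC4, poly(A)-binding proteins, rose in MDA-MB-436 (0.35 ± 0.059 and 0.24 ± 0.058 in the authors' deposited table), and EIF4B and EEF1G fell in BoM-1833 (-0.27 ± 0.054 and -0.20 ± 0.057 there).

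Of 34 genes for ribosome assembly and RNA polymerase I, 13 were called lower for MDA-MB-436 and 2 for BoM-1833, with median log2 fold changes of -0.17 and -0.069. WDR12, part of the PeBoW complex that matures the large subunit, fell in both lines (-0.89 ± 0.099 and -0.53 ± 0.10 in the authors' deposited table), as did the nucleolar phosphoprotein gene NOLC1 (-0.28 ± 0.074 and -0.20 ± 0.061). Of 12 regulators, EIF4EBP2, a translation repressor that mTOR inactivates, rose in both (0.78 ± 0.073 and 0.42 ± 0.070 in the authors' deposited table). RPS6KB2, an S6 kinase gene, fell in both (-0.53 ± 0.098 and -0.34 ± 0.10 there), and MYC was called lower in BoM-1833 (-0.29 ± 0.076). MTOR, RPTOR and LARP1 were not called in either line. Among 76 mitochondrial ribosomal protein genes, 1 was called higher and 19 lower for MDA-MB-436 and 0 higher and 1 lower for BoM-1833, with medians of -0.15 and -0.0018. MRPL9 was lower in both (-0.75 ± 0.083 and -0.45 ± 0.11 in the authors' deposited table). Of 74 tested respiratory chain subunits, 3 were called higher and 7 lower for MDA-MB-436 and 3 higher and 0 lower for BoM-1833, and of 17 snoRNA host genes 1 higher and 1 lower for MDA-MB-436 and 0 for BoM-1833. The median of the respiratory chain subunits was -0.064 for MDA-MB-436 and 0.082 for BoM-1833, where 61 of 74 were positive. At an unadjusted p under 0.05, 13 respiratory chain subunits were higher and 1 lower in BoM-1833, 1 mitochondrial ribosomal protein gene was higher and 2 lower, and 1 snoRNA host gene was lower. Of all 12906 genes tested in BoM-1833, 1341 were higher and 1424 lower at that threshold.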

How the data were processed

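Poly(A) RNA libraries were stranded, per the labels' protocols. STAR, RSEM 1.3.1, DESeq2 1.46.0 and hg38 are named in the submitters' processing notes. The authors deposited 1 DESeq2 table per line. Its library columns are a signal: normalized read counts, each library scaled by its own size factor, in the authors' deposited table. Log2 fold changes with standard errors on the log2 scale, and the Wald statistic (a score) and its p-values, raw and adjusted, were likewise deposited by the authors. No per-sample column was left unmapped.

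Every library value was a whole multiple of the library's smallest value (100% within 0.01 of a read), so whole reads were recovered. DESeq2 1.42.0 on these reads returned the deposited numbers of calls. Alternatives used edgeR 4.0.16, limma 3.58.1 (pseudocounts 1 and 10, minimum mean 10) and scipy 1.17.1, and the fitting scripts were tested on simulated data. Transcript length is the median over basic coding transcripts of GENCODE 29 and covered 90.7% and 92.3% of tested genes. Sequences are from RefSeq, GRCh38.p14.

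Members, gene lists and tests were chosen with earlier results of these data known. Named members are the stalk proteins, RPSA, RPL5, RPL11, RPS6, RPS19, the L-suffix paralogs with their parents, members called in both lines, the 3 called members with the largest change in each direction per line at a mean count of at least 100, members that differ between lines, and the 3 with most and fewest reads per length. Other genes named were chosen after their values were seen. Replicate numbers were not used as a pairing in the main tests.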

Additional observations from a re-analysis of the deposited data

How the results depend on the processing

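The numbers of ribosomal protein genes called by the deposited test were 4 (MDA-MB-436) and 2 (BoM-1833). In MDA-MB-436, edgeR with genes of at least 1 read called 4, while edgeR with its default filter, limma with a minimum mean at either pseudocount, and size factors from genes of at least the median length each called 3 (2 higher, 1 lower). limma with no filter called 1, the length offset 12, and refits without 1 library from 1 to 33 (with the length offset as well, 4 to 18, with 17 called without siNT library 1). In BoM-1833, edgeR and limma called 2 to 3, the length offset 19, and refits without 1 library from 0 to 9 (with the length offset, 7 to 22: 21, 14 and 22 without siNT library 1, 2 and 3, and 11, 7 and 11 without siPHF19 library 1, 2 and 3). Of all tested genes, the length offset called 24.2% for MDA-MB-436 and 14.9% for BoM-1833. Refits without 1 library called 12.9% to 26.9% and 5.99% to 17.0% of all tested genes. With the offset as well, they called 15.7% to 27.2% for MDA-MB-436 (22.2% without siNT library 1). For BoM-1833 they then called 14.7%, 10.5% and 11.7% without siNT library 1, 2 and 3. Without siPHF19 library 1, 2 and 3 they called 10.0%, 8.8% and 10.1% there. The cause of the changes with the offset and with single libraries was not tested beyond the length classes given above. The median log2 fold change ran from -0.18 to 0.042 for MDA-MB-436 and from -0.081 to 0.047 for BoM-1833 over refits without 1 library. With the offset and without 1 library it ran from -0.039 to 0.052 for MDA-MB-436 and from -0.094 to -0.060 for BoM-1833. The difference in share of reads ran from -0.441 to 0.195 percentage points for MDA-MB-436 and from -0.161 to 0.132 for BoM-1833 without 1 library, with exact permutation p between 0.4 and 1. The difference between lines called 0 members by z or interaction term and 9 with the length offset. The named members kept their calls in both lines when reads of pseudogenes were added or when ribosomal protein genes were left out of the size factors. The offset with single libraries left out, and the offset in the interaction, were chosen after seeing the data.

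Samples with the same replicate number did not deviate together (r from -0.35 to -0.00041 across genes), while r ran from -0.081 to 0.34 between unlike numbers. The deviations also carry the length trend of each library, so these values cannot show whether cultures were matched by number. A replicate block left 1 call for MDA-MB-436 (RPS27L) and 0 for BoM-1833, and with the length offset 6 (5 higher, 1 lower) and 5, all lower. Of all tested genes, the block called 11.9% for MDA-MB-436 and 5.00% for BoM-1833, and with the offset 15.5% and 7.52%. The mean difference in share of reads within replicate numbers, the replicate block for this value, was -0.124 and -0.043 percentage points. By arithmetic this equals the difference of the group means for any pairing, so it cannot show whether the block matters.

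Apart from RPL39L and RPS27L, the lowest value of a tested member in any library was 1633 normalized counts (RPS29), so counting error was small beside the spread between siNT libraries.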

Other observations

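Entries named as pseudogenes of ribosomal protein genes, 30 in each table, held 0.0159% to 0.0198% of reads in each of the 12 libraries, and 0 of the 16 tested for MDA-MB-436 and 0 of the 12 for BoM-1833 were called by the deposited DESeq2 test. At an unadjusted p under 0.05, 3 passed for MDA-MB-436 and 0 for BoM-1833, where 4639 of 14243 and 2765 of 12906 of all tested genes did. RPSAP58 had 13.5% of the mean normalized count of RPSA in BoM-1833 and 2.99% in MDA-MB-436, and RPL13AP5 4.36% and 6.19% of that of RPL13A. Reads of near-identical copies may be assigned to either entry.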
